A study of Mus musculus with 22 samples.

Results

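The miRNAs described here are mmu-miR-31-5p, mmu-miR-31-3p, mmu-miR-203-3p, mmu-miR-205-5p and mmu-miR-802-5p, written below without the mouse prefix. They are 5 of the 1881 mouse miRNAs on an Agilent miRNA array and come from 4 hairpins. They were chosen by name, as epithelial miRNAs outside the miR-200 and miR-192 families, but with earlier results of these data known. They are followed across small intestine, serum and feces. Male mice, 8 weeks old, were given 0 Gy or 10 Gy of X-rays, delivered at 1.0 Gy each minute. Intestine and feces were measured on 4 arrays at each dose, and serum on 2 arrays at 0 Gy and 4 at 10 Gy. Every array held Cy3-labelled total RNA of 1 sample. The labels name no strain or genotype and leave out how long after irradiation the samples were taken. Whether replicates are different animals is not stated either, and p-values then measure only the spread between these samples, which may be technical. Each sample type was on its own slide and each dose in its own slide columns, so type and slide cannot be told apart, nor can dose and column. Both rows of every slide held both doses.

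A mature miRNA is a short RNA cut from a hairpin precursor, and it guides Argonaute proteins to messenger RNAs that pair with its seed, bases 2 to 8 from the 5′ end. Both arms of a hairpin can give a mature miRNA, named 5p and 3p. miR-31 has been linked to the proliferation and regeneration of intestinal stem cells. miR-203 restrains progenitor cells in skin, where it represses p63. miR-205 is abundant in stratified epithelia and represses Zeb1 and Zeb2. miR-802 is expressed in liver, pancreas and intestine.

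The mature sequences are shown because the seeds decide which messenger RNAs each miRNA pairs with. They are from RefSeq (GRCm38.p6), written 5′ to 3′ with the seed in capitals.
miR-31-5p: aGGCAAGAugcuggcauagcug
miR-31-3p: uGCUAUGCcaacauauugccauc
miR-203-3p: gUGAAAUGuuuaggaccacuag
miR-205-5p: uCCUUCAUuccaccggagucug
miR-802-5p: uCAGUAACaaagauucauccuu
The 5 seeds are all different. None of the other RefSeq mature miRNAs shares a seed with any of them, over the 1679 compared, of which 1608 carry the name of one of the 1881 miRNAs on the array. The 2 arms of miR-31 have different seeds although they come from 1 precursor. The sequences are 22 bases long except miR-31-3p, at 23, and G and C make up from 31.8% of miR-802-5p to 54.5% of miR-31-5p and miR-205-5p.

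In GRCm38.p6 the Mir31 hairpin lies at chr4:88910557-88910662 on the minus strand and overlaps the long noncoding RNA gene Gm49890. The Mir203 hairpin lies at chr12:112130880-112130955 on the plus strand and overlaps another annotated miRNA gene, Gm51289. Mir205 lies at chr1:193507463-193507530 on the minus strand and overlaps its host noncoding gene Mir205hg. Mir802 lies at chr16:93369720-93369816 on the plus strand and overlaps no other annotated gene. The 4 hairpins thus lie on 4 chromosomes.

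The number of detected miRNAs was 285 to 300 on the intestine arrays at 0 Gy and 332 to 389 at 10 Gy, 131 to 219 on the serum arrays and 378 to 675 on the feces arrays. A miRNA was counted as detected on an array when 50% or more of the spots of at least 1 probe were well above background by the scanner software's flag. In the intestine all 13 other epithelial markers and all 12 smooth muscle and mesenchyme markers were detected on all 8 arrays, and miR-122-5p, the main hepatocyte miRNA, on none. In serum the erythrocyte marker miR-486a-5p was detected on all 6 arrays, and 11 of the 13 other epithelial markers and miR-122-5p on none. miR-34a-5p, a target of p53 that rises after DNA damage, was higher at 10 Gy in intestine by 3.33 ± 0.19 on the log2 scale (SE, limma adjusted p = 7.7e-08). Over all 335 miRNAs tested there 26% passed as higher. miR-34b-5p also passed as higher, but 0 of 4 unirradiated and 4 of 4 irradiated arrays detected it, so its change depends on the floor. miR-34c-5p, detected on 0 of 4 and 1 of 4, was not tested.

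Both arms of miR-31, miR-203-3p and miR-802-5p were detected on 8 of 8 intestine arrays and on 0 of 6 serum and 0 of 8 feces arrays. miR-205-5p was detected on 6 of 6 serum arrays, 0 of 8 intestine arrays and 0 of 8 feces arrays. Each of the 5 was measured by 2 probes of 15 spots, and no spot was saturated. Because no miRNA of the 5 was detected in more than 1 sample type, the dose effect of none could be compared between sample types.

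**Figure D1:**
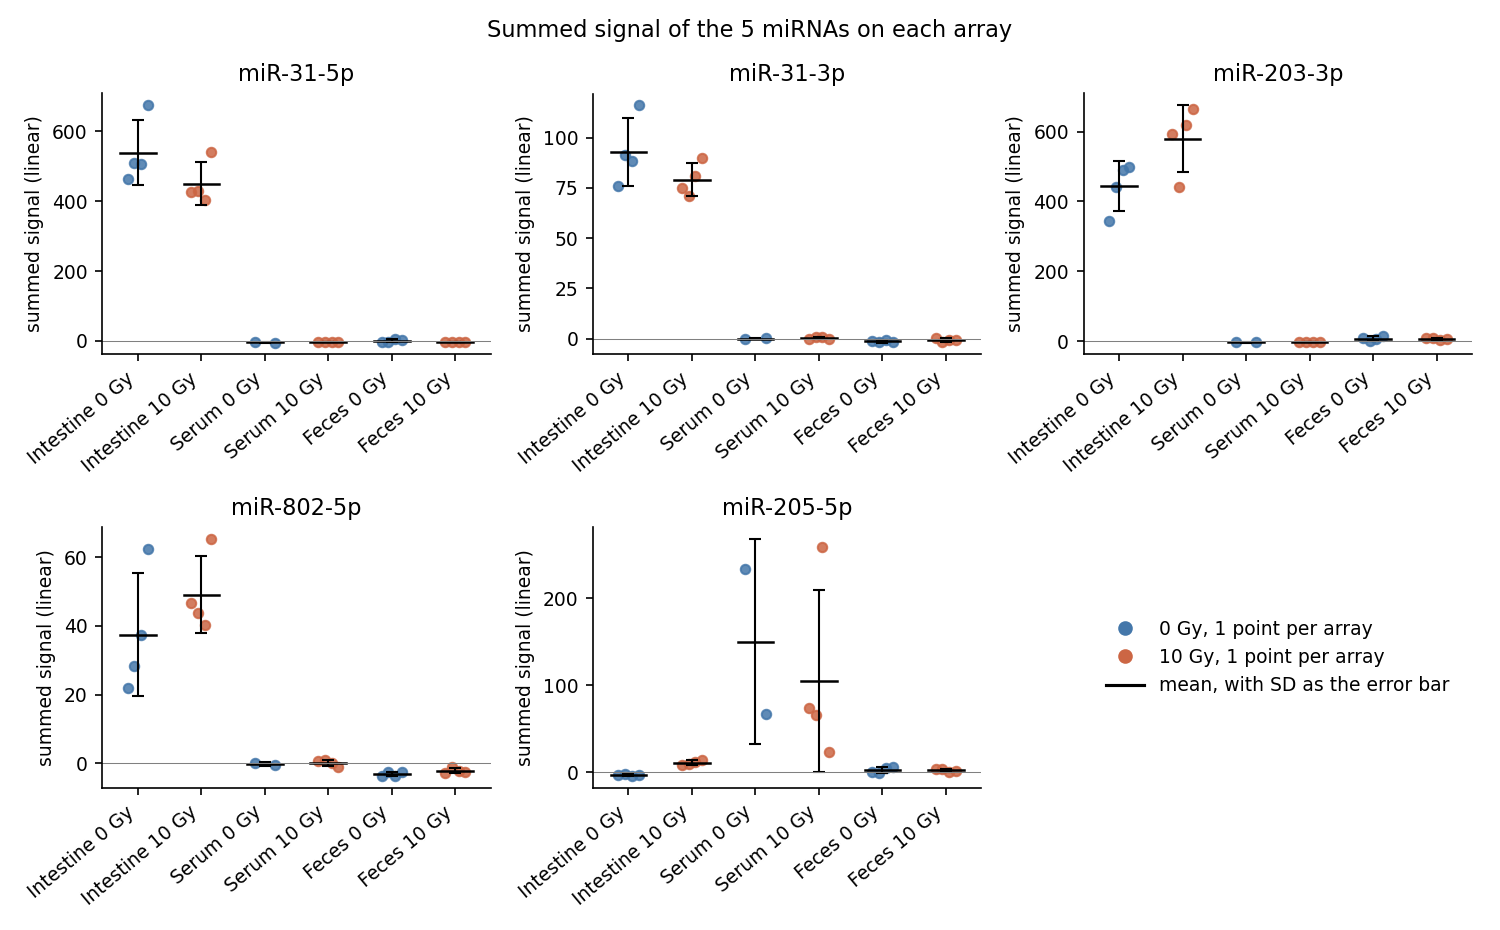
Summed signal (linear scale, mean over spots summed over probes, before scaling) of the 5 miRNAs in each of the 6 groups; each point is 1 array, the horizontal line is the mean and the error bar the SD. The 4 miRNAs of the first panels were detected in intestine alone, with miR-203-3p reaching 14.9 on 1 feces array below that criterion, and miR-205-5p in serum alone, from 23.4 to 259 at 10 Gy.

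Both arms of miR-31 were lower in the irradiated small intestine. The summed signal of miR-31-5p was 462, 510, 506 and 674 on the 4 arrays at 0 Gy and 426, 428, 404 and 541 on the 4 at 10 Gy. Before scaling these signals overlap, since 3 of the 4 unirradiated arrays lie within the range at 10 Gy. After division by each array's 75th percentile the log2 values were 0.071, 0.075, -0.09 and 0.38 at 0 Gy and -0.38, -0.62, -1.12 and -0.3 at 10 Gy, and every irradiated array lay below every unirradiated one. The change in miR-31-5p was -0.71 ± 0.21 (log2, 10 Gy minus 0 Gy, SE, n = 4 against 4, limma adjusted p = 0.018), with a 95% interval from -1.17 to -0.26, or 1.64-fold lower.

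miR-31-3p, the other arm of the same hairpin, gave summed signals of 76, 91.4, 88.1 and 116 at 0 Gy and 74.9, 71, 80.7 and 89.6 at 10 Gy. Its scaled log2 values were -2.53, -2.41, -2.61 and -2.16 at 0 Gy against -2.88, -3.22, -3.45 and -2.89 at 10 Gy, again without overlap. It fell by 0.68 on the log2 scale, 1.6-fold (SE 0.19, 95% interval -1.09 to -0.27, limma adjusted p = 0.014). The separate probes of each arm changed alike, by -0.7 and -0.75 for miR-31-5p and by -0.68 for either probe of miR-31-3p.

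miR-203-3p was measured at a summed signal of 343, 442, 489 and 499 at 0 Gy and 592, 442, 618 and 664 at 10 Gy. On the scaled log2 scale its values were -0.36, -0.13, -0.14 and -0.049 at 0 Gy and 0.1, -0.58, -0.51 and 0.00064 at 10 Gy, so that the irradiated arrays spread to both sides of the unirradiated ones. Its difference did not pass (-0.078 ± 0.2, limma adjusted p = 0.78), and the 95% interval of -0.5 to 0.35 allows a change in either direction. The 2 probes gave -0.076 and -0.08.

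miR-802-5p had summed signals of 21.9, 28.4, 37.2 and 62.4 at 0 Gy, a 2.85-fold span, and 46.6, 43.8, 40.2 and 65.3 at 10 Gy. The scaled log2 values ran from -4.33 to -3.05 at 0 Gy and from -4.45 to -3.35 at 10 Gy and overlapped. The difference was 0.01 ± 0.29 (limma adjusted p = 0.98, 95% interval -0.63 to 0.65). Its first probe was detected on 1 of the 4 unirradiated and all 4 irradiated arrays, and the other on all 8.

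**Figure D2:**
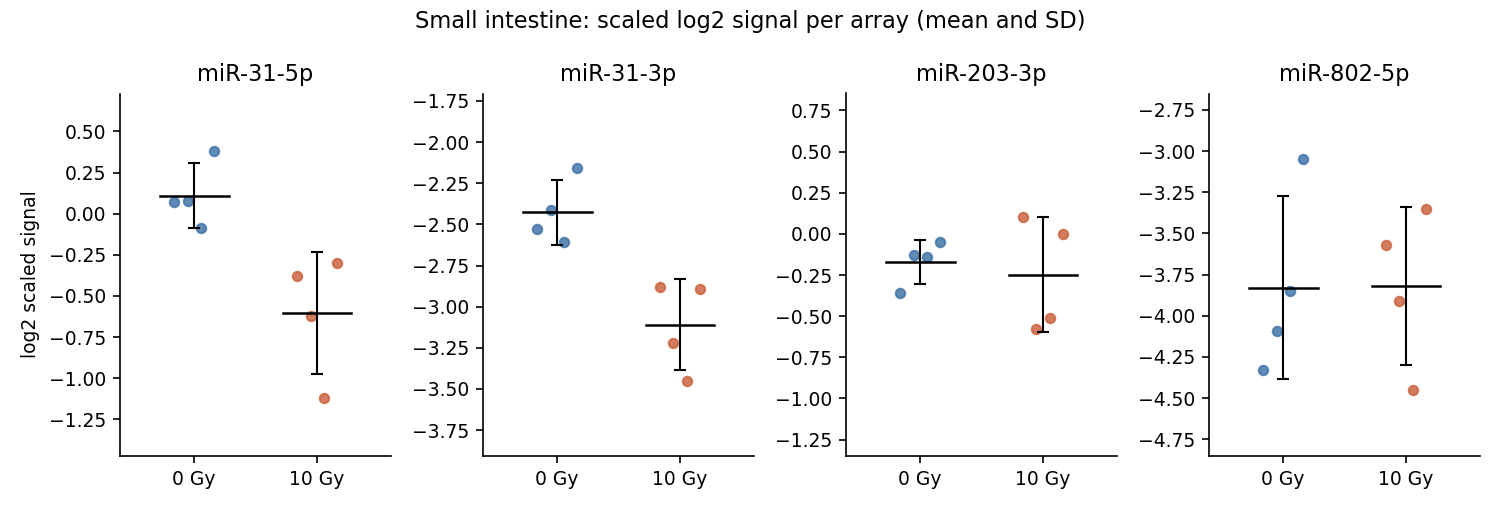
Scaled log2 signal of the 4 miRNAs detected in small intestine, 1 point per array at 0 Gy (blue) and 10 Gy (orange), with the mean (line) and SD (error bar); each vertical axis spans the same number of log2 units. The doses separate for miR-31-5p and miR-31-3p and overlap for miR-203-3p and miR-802-5p.

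Among the 5 miRNAs, 4 passed the detection filter in intestine and 2 of these 4 passed the test, both lower. Over all 335 miRNAs tested there, 41.8% passed in either direction and 15.8% passed as lower, and the arrays of the doses did not overlap for 39.4%. Counted from the largest fall, miR-31-5p was at position 37, miR-31-3p at 42, miR-203-3p at 117 and miR-802-5p at 140 of 335. Over the 335 the median change was 0.16, and relative to it miR-31-5p changed by -0.88 and miR-31-3p by -0.84. Fewer cells of a type and less RNA per cell cannot be told apart in such bulk tissue.

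The size of the falls of miR-31 depended on the scaling between arrays. The 75th percentile used for scaling was 439 to 538 at 0 Gy and 553 to 880 at 10 Gy, so it moved with dose, as did the number of detected miRNAs, and the part of either in the results was not tested. Without scaling, miR-31-5p changed by -0.25 (limma adjusted p = 0.19) and miR-31-3p by -0.22 (adjusted p = 0.24), neither passing, while the median of all miRNAs was 0.62 and 186 miRNAs passed as higher against 13 lower. miR-203-3p was then at 0.38 (adjusted p = 0.091) and miR-802-5p at 0.47 (adjusted p = 0.21). With the percentile over all miRNAs the split was 21 higher and 86 lower and the median -0.35, with miR-31-5p at -1.23 and miR-31-3p at -1.2. Quantile normalization gave 59 higher and 67 lower, a median of 0.022, and -0.7 and -0.82 for the arms. Relative to the quantile-normalized median, miR-31-5p lay at -0.72 and miR-31-3p at -0.84. The other scalings move all miRNAs of an array alike and so leave this relative change nearly as it is by construction. The scaling used here gave 87 higher and 53 lower. Within the slide rows, with 2 arrays per dose in each, the changes kept their sign but did not pass in limma, at -0.57 (adjusted p = 0.19) and -0.86 (0.12) for miR-31-5p and -0.58 (0.2) and -0.78 (0.16) for miR-31-3p. With no detection filter, and so all 1881 miRNAs in the limma fit, the adjusted p was 0.21 for miR-31-5p and 0.12 for miR-31-3p.

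**Figure D3:**
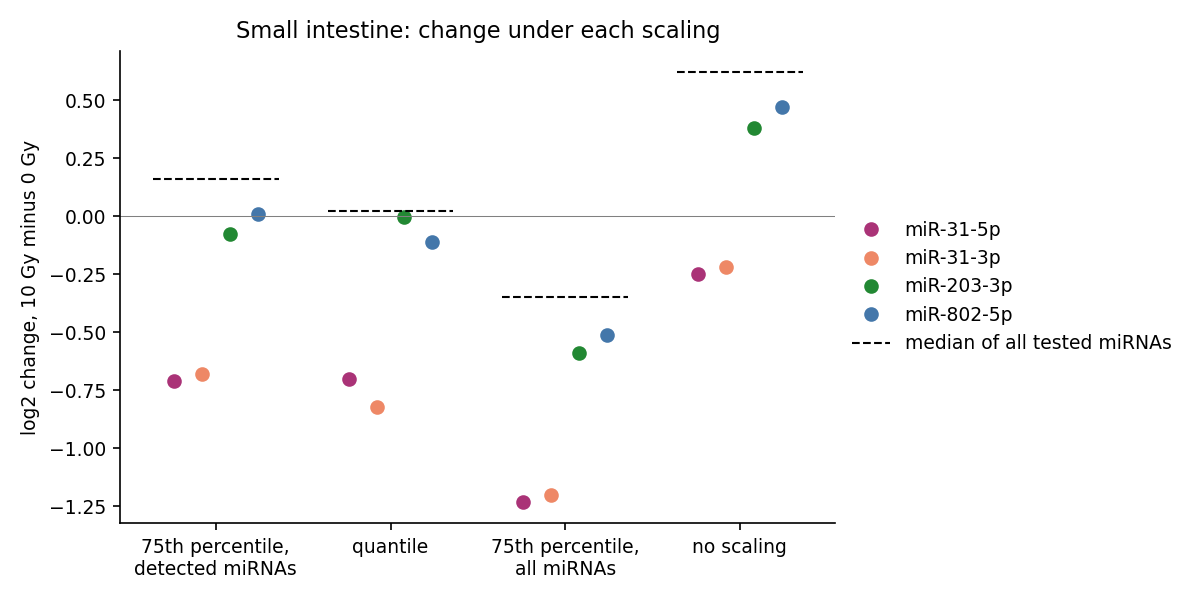
Log2 change from 0 to 10 Gy in small intestine of the 4 detected miRNAs (points) under 4 scalings, with the median of all tested miRNAs under each as a dashed line. Both arms of miR-31 lie below the median in every column, and the whole set shifts with the scaling.

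Ratios of a pair of miRNAs on the same array do not depend on the scaling. Where the doses did not overlap, the pair always held an arm of miR-31. The 2 arms come from 1 precursor, so such pairs are not separate observations. How often ratios of other intestine miRNAs separate the doses was not computed. Of the 335 single miRNAs 39.4% did. The log2 ratio of miR-31-5p to miR-203-3p was 0.43, 0.21, 0.048 and 0.43 at 0 Gy and -0.48, -0.043, -0.61 and -0.3 at 10 Gy, without overlap. It changed by -0.64 (exact two-sided permutation p = 0.0286, the smallest that 4 against 4 allows, and 0.0571 after Benjamini-Hochberg adjustment over the 6 ratios). miR-31-3p to miR-203-3p changed by -0.6 and miR-31-5p to miR-802-5p by -0.73, each with an exact permutation p of 0.0286 and 0.0571 after adjustment. miR-31-3p to miR-802-5p changed by -0.69 (exact permutation p = 0.0571, adjusted 0.0857). With normexp background correction these 3 ratios changed by -0.39, -0.27 and -0.17, in that order, and that of miR-31-5p to miR-203-3p by -0.49. Within slide rows 1 and 2 the ratio to miR-802-5p changed by -1.04 and -0.41 for miR-31-5p and by -1.05 and -0.33 for miR-31-3p.

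The ratio between the arms of miR-31 was 2.54 ± 0.051 at 0 Gy and 2.5 ± 0.13 at 10 Gy (log2, SD, n = 4 each). Its change of -0.033 was within the spread (exact permutation p = 0.743). The ratio of miR-203-3p to miR-802-5p changed by -0.088 (exact permutation p = 0.771), with values from 3 to 3.97 at 0 Gy and from 3.33 to 3.94 at 10 Gy. No ratio passed 0.05 after adjustment. A change in such a ratio shows that the pair changed unequally, and not which of the pair moved.

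**Figure D4:**
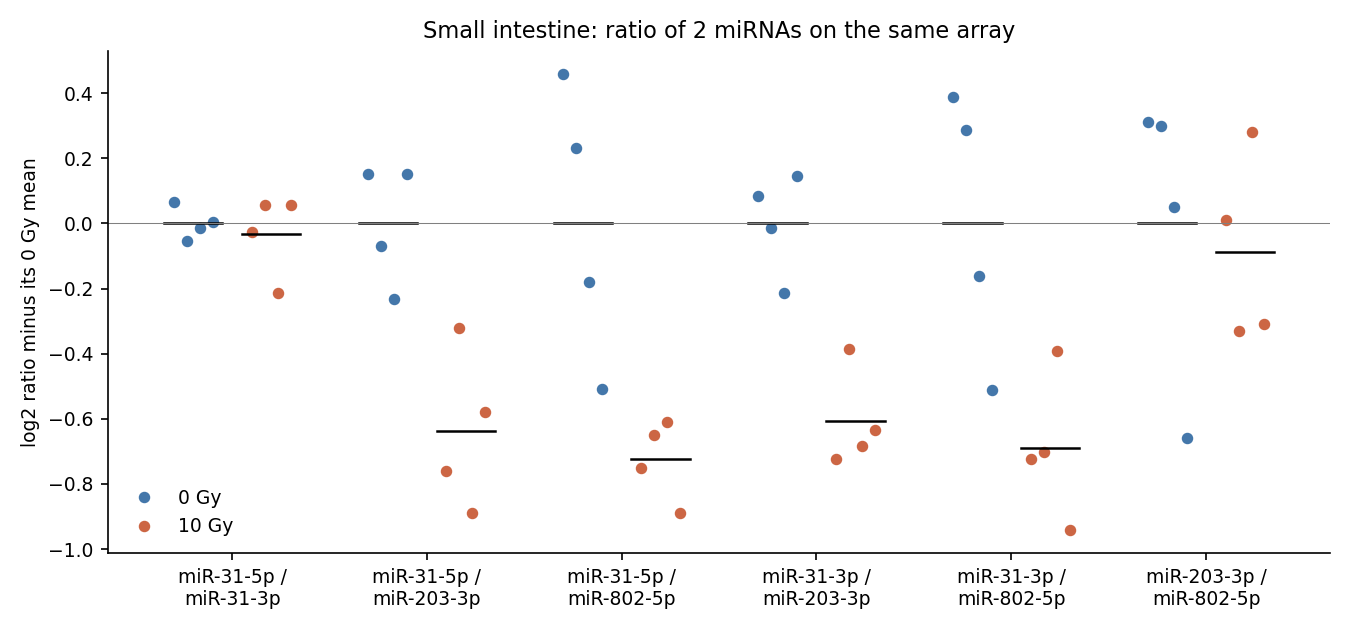
Log2 ratio of 2 miRNAs on the same small intestine array, minus the mean of that ratio at 0 Gy; each point is 1 array at 0 Gy (blue) or 10 Gy (orange) and black lines are means. The 4 irradiated arrays lie below the 4 unirradiated ones for miR-31-5p over miR-203-3p, miR-31-5p over miR-802-5p and miR-31-3p over miR-203-3p.

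The other arms of the hairpins were near or below the detection limit. miR-203-5p was detected on 1 of 4 irradiated intestine arrays and on 0 of 4 unirradiated ones, with summed signals of 2.74, 4.88, 5.17 and 7.41 at 0 Gy and 17.8, 9.93, 15.1 and 12.9 at 10 Gy. The scanner software's own flag was raised for it on 1 of 4 arrays at 0 Gy and 4 of 4 at 10 Gy. It had too few detections for the dose test. miR-205-3p and miR-802-3p were detected on no array of any sample type.

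Of 13 other epithelial miRNAs, 6 were lower in the irradiated intestine, where 15.8% of all 335 tested miRNAs passed as lower. Of those in the list, which holds the miR-200 family, miR-192, miR-194 and miR-215, miR-375, miR-378a and the miR-183 cluster, all 13 were tested, 0 were higher and 7 did not pass (limma), and the median change was -0.61 against 0.16 over all tested miRNAs. The largest fall was that of miR-378a-3p at -1.02 (limma adjusted p = 0.0019), followed by miR-200c-3p and miR-200b-3p at -0.79 each (0.0084) and miR-141-3p at -0.63 (0.018). The lists were chosen with earlier results of these samples known, so their direction is not independent evidence. The summed scaled signal of the list was 102 to 144 at 0 Gy and 51.6 to 94.8 at 10 Gy. The median of the list stayed below 0 under all 4 scalings, at -0.56 (quantile), at -1.12 when the percentile was taken over all miRNAs, and at -0.14 for unscaled signals, where 1 was lower and 1 higher.

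Markers of other cell types were read on the same arrays, where 41.8% of all tested miRNAs passed in either direction and 26% passed as higher. In the smooth muscle and mesenchyme list 4 of 12 miRNAs were higher and 0 lower, with a summed scaled signal of 8.13 to 9.82 at 0 Gy and 9.8 to 13.9 at 10 Gy. miR-214-3p rose by 1.03, miR-199a-5p by 0.82, miR-199a-3p by 0.8 and miR-125b-5p by 0.49. Direction and count depended on the scaling: with the percentile over all miRNAs 0 of the 12 passed in limma and the median turned to -0.19, with miR-125b-5p at -0.026, and without scaling 12 were higher. In the leukocyte list 3 of 8 were lower and 1 higher, with a summed scaled signal of 2.77 to 4.46 at 0 Gy and 2.96 to 3.48 at 10 Gy. miR-150-5p, of mature lymphocytes, was lower. All 4 arrays at 0 Gy but 1 of 4 at 10 Gy detected it, so its fitted change of -2.32 depends on the floor. miR-142a-3p fell by 1.04 and miR-142a-5p fell by 1 on the log2 scale, while miR-223-3p, of granulocytes, rose by 1.2. With the percentile over all miRNAs miR-223-3p was at 0.68 and did not pass, and without scaling miR-142a-3p (-0.57) and miR-142a-5p (-0.54) did not. In the erythrocyte list 1 of the 2 tested, miR-486a-5p, was higher, with 0 of 4 unirradiated and 4 of 4 irradiated arrays detecting it, but did not pass with quantile normalization or the percentile over all miRNAs. miR-144-3p was detected on no array, and the summed scaled signal was 0.229 to 0.384 at 0 Gy and 0.243 to 0.54 at 10 Gy. The part of these values in the changes of miR-31 was not tested.

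The miRNAs whose pattern over the 8 intestine arrays was nearest to each of the 4 were found from the mean absolute difference of log2 values, each centred on its own mean, over the 267 other miRNAs detected on all 8 arrays. The nearest to miR-31-5p was miR-31-3p, at 0.063, followed by miR-378d and miR-192-5p at 0.092 each, against a median of 0.47 over all 267. Nearest to miR-31-3p were miR-30e-3p at 0.05, miR-31-5p at 0.063 and miR-200b-5p at 0.069. For miR-203-3p they were miR-98-5p at 0.078, miR-26a-5p at 0.086 and miR-18a-5p at 0.09, of which none passed the dose test. miR-802-5p had no neighbour as near: miR-148b-3p was at 0.13, miR-7a-5p at 0.21 and miR-451a at 0.22. These distances are descriptions over 8 arrays that share the scaling and the dose groups.

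Between sample types the levels were set on a scale over the 81 miRNAs detected on all 22 arrays. Where a miRNA was detected on no array of a group, its fold is a lower bound. It uses the probes detected on all arrays of the bright group. The dim group's level was replaced on each array by the lowest signal any detected probe had there, unless the probe itself was brighter, and the smallest fold above 1 over those probes (or the fitted fold, where smaller still) is given, leaving out a probe whose fold came out under 1. Where a probe was left out in this way, the fold is above 1 by construction and does not hold for both probes. A miRNA that entered the fit only through the sample type that detects it had to differ, so these bounds are a description and carry no p-value. miR-31-5p was at least 80.9-fold higher in intestine than in feces at 0 Gy and at least 45.6-fold at 10 Gy. Its summed signal in feces was -2.95 to 5.9 at 0 Gy, not well above background. miR-203-3p was at least 66.7-fold and at least 50.7-fold higher in intestine than in feces.

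The other 2 had smaller bounds. miR-31-3p was at least 13.9-fold higher in intestine than in feces at 0 Gy and at least 8.03-fold at 10 Gy. miR-802-5p was at least 5.27-fold higher by the 1 probe that could be used at 0 Gy, and at least 4.91-fold at 10 Gy. With normexp background correction the 10 Gy differences from feces were -0.45 for miR-31-3p (adjusted p = 0.072) and -0.34 for miR-802-5p (adjusted p = 0.19) and did not pass.

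Against serum the bounds were lower than against feces, on arrays whose 75th percentile was 128 to 517. miR-31-5p was at least 16.3-fold higher in intestine at 0 Gy and at least 5.58-fold at 10 Gy, and miR-203-3p at least 10.3-fold and 5.57-fold. At 0 Gy the bounds were 2.78 for miR-31-3p and 2.05 for miR-802-5p. The latter rests on the 1 probe detected on all 4 intestine arrays. At 10 Gy 1 probe gave 1.86-fold for miR-31-3p and 1.15-fold for miR-802-5p. The fold of the other probe of each miRNA came out under 1. No bound above 1 therefore holds over both probes at 10 Gy for either miRNA. With normexp the sign turned at 10 Gy, to 0.22 for miR-31-3p and 0.34 for miR-802-5p as serum minus intestine (adjusted p = 0.29 and 0.09). At 0 Gy miR-802-5p was then at -0.44 (adjusted p = 0.24). The normexp setting adds an offset of 50 to every spot. In intestine the summed signal without it was 71 to 116 for miR-31-3p and 21.9 to 65.3 for miR-802-5p. The order of intestine and serum for these 2 miRNAs thus depends on this setting, and the part of the offset was not tested.

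The counts over these comparisons are a description for the same reason. All 4 intestine miRNAs passed as lower in feces, where 59.5% of the 749 tested miRNAs passed at 0 Gy and 58.9% at 10 Gy. The same 4 passed as lower in serum and miR-205-5p as higher, where 46.5% passed at 0 Gy and 57.1% at 10 Gy. In serum against feces only miR-205-5p was detected, where 38.6% and 46.2% passed. In each of the 4 intestine miRNAs, serum and feces have no order, since both are not well above background.

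The other epithelial miRNAs were detected in feces. Of the 13, 9 were detected on all 8 feces arrays and 4 on some, while both arms of miR-31, miR-203-3p and miR-802-5p were detected on none by the same criterion. In unirradiated intestine the mean scaled log2 values of those 9 were 0.25 to 5.38, and of those 4 were -3.01 to 0.73. miR-31-5p was at 0.11 there, miR-203-3p at -0.17, miR-31-3p at -2.43 and miR-802-5p at -3.83. The part of the intestine level in detection in feces was not tested. The scanner software's own flag was raised for miR-203-3p on 1 feces array, 0 Gy replicate 4, whose summed signal was 14.9. All 13 were lower in feces than in intestine at both doses, with a median difference of -6.91 at 0 Gy and -5.22 at 10 Gy on the log2 scale. Over all 749 tested miRNAs 59.5% passed in either direction at 0 Gy and 58.9% at 10 Gy. For the 4 detected on only some feces arrays the difference depends on the floor. In feces 11 of the 13 were tested for dose, and 0 passed (limma), with 0 also below an unadjusted p of 0.05, where 7.54% of the 491 tested miRNAs passed.

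miR-205-5p was the one of the 5 measured in serum. Its summed signal was 234 and 67 on the 2 arrays at 0 Gy, and 73.7, 65.8, 259 and 23.4 on the 4 at 10 Gy, an 11.1-fold span between irradiated arrays. The highest and the lowest of the 6 were both irradiated samples, so the doses overlapped. After scaling the log2 values were -1.14 and -1.74 at 0 Gy and -2.06, -1.2, 0 and -2.45 at 10 Gy, and the difference was 0.014 ± 0.66 (SE, n = 2 against 4, limma adjusted p = 0.99). Its 95% interval, -1.54 to 1.57, also holds a change of the size measured for miR-31-5p in intestine. In serum 9 of the 193 tested miRNAs passed, 4.66%. That count was 5 without 0 Gy replicate 1, 16, 14 and 3 without 10 Gy replicates 1, 3 and 4, and 0 within either slide row (limma, with 19 and 26 below an unadjusted p of 0.05). Without a 0 Gy array, or within a row, the 0 Gy arm is 1 sample, which is assumed to vary like the 10 Gy samples of that fit.

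Both probes of miR-205-5p followed the same arrays. The first gave 98.9 and 26.8 at 0 Gy and 29.6, 24.5, 99.8 and 9.55 at 10 Gy, and the second 135 and 40.2 at 0 Gy and 44.2, 41.3, 160 and 13.9 at 10 Gy. Both were highest on 10 Gy replicate 3 and lowest on 10 Gy replicate 4, where only 1 of them was detected. On the same arrays both tested erythrocyte markers were lower at 10 Gy (limma), where 7 of all 193 tested miRNAs passed as lower. miR-486a-5p fell by 1.46 on the log2 scale, and did not pass with quantile normalization or without scaling. For miR-451a 2 of 2 unirradiated and 1 of 4 irradiated serum arrays were above the detection criterion, so its fitted change of -3.41 depends on the floor. miR-375-3p of the epithelial list was higher by 2.61 (limma adjusted p = 0.028), and did not pass without scaling. The summed scaled signal of the erythrocyte list was 17.5 to 20.6 at 0 Gy and 5.61 to 8.08 at 10 Gy, with miR-144-3p detected on no array, and its part in the values of miR-205-5p was not tested.

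The serum level of miR-205-5p was at least 4.39-fold higher than that of intestine at 0 Gy and at least 9.66-fold at 10 Gy. It was at least 20.2-fold and at least 20-fold higher than that of feces. The bounds at 10 Gy rest on 1 probe, and all 4 are descriptions, since miR-205-5p entered the fit only through serum. Nearest to it over the 6 serum arrays, among the 120 others detected on all of them, were miR-23a-3p at 0.44, miR-208a-5p at 0.46 and miR-133b-3p at 0.48, against a median of 0.74.

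In intestine miR-205-5p was not well above background at either dose, but its signal differed between the doses. The summed signal was -2.79, -1.84, -4.24 and -2.48 at 0 Gy and 8.84, 9.6, 12.4 and 14.2 at 10 Gy, without overlap, and the software's own flag was raised on 1 irradiated array. Of the 1443 miRNAs detected on no intestine array, 20.6% likewise had every irradiated array above every unirradiated one. No fold is given, since both groups are below the detection limit.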

How the data were processed

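The authors read 22 Agilent arrays with Agilent Feature Extraction 11.5, per the submitters' processing notes. The deposited intensity used here is the processed signal, which per the file headers is linear, background-subtracted for each spot and without any normalization across arrays. The deposited median spot and local background intensity served for normexp (offset 50). The authors' series table held the same values within 1%. The array design's build was not used here for coordinates.

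Signals were averaged over the non-outlying spots of a probe, summed over probes, scaled to the 75th percentile of those miRNAs that every array of the fit detected (268 in intestine, 121 in serum, 326 in feces, 81 over all), raised to a floor (the median over arrays of the lowest detected value) and taken to log2. Doses were compared within each sample type, and sample types in 1 fit of 6 groups, with limma 3.58.1 (lmFit, eBayes) in R 4.3.3 over miRNAs whose number of detecting arrays reached the size of the smaller group, or 2 in the fit of 6 groups. P-values were Benjamini-Hochberg adjusted over all miRNAs tested, with a threshold of 0.05. The fit was tested on simulated data. The number of arrays limits the precision.

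The 5 miRNAs, the marker lists (other epithelial, smooth muscle and mesenchyme, leukocyte, erythrocyte, liver, miR-34 family) and the tests were chosen with earlier results of these data known. The text names the 5, the other arms of their hairpins, up to 4 passing members of each list per sample type, miRNAs sharing a seed, and the 3 nearest to each in pattern. The within-array ratios, the scanner software's own sum per miRNA and the marker lists under each scaling were added after seeing the data. Alternatives covered scaling, background correction, probe summary, filter, shared fit, replicate block, slide row, array weights, the series table and leaving out each array.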

Additional observations from a re-analysis of the deposited data

Results flagged for a closer look

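Signals outside the comparisons, left out by the detection filter, were seen in irradiated intestine. miR-205-5p had a mean summed signal of 11.3 ± 2.5 at 10 Gy (SD, n = 4) against -4.24 to -1.84 on the arrays at 0 Gy. Among the 1443 miRNAs detected on no intestine array, its difference of 14.1 was exceeded by 5 others, miR-760-3p (18.4), miR-712-3p (15.6), miR-691 (15.3), miR-878-3p (14.4) and miR-762 (14.3), named after their values were seen, and the median difference was 1.62. The brightest probe of miR-203-5p had a mean signal of 11.5 at 10 Gy, against 3.71 to 8.46 on the arrays at 0 Gy, and was detected on 1 of 4 irradiated arrays. Its lowest irradiated array was at 8.99. The other probes of miR-203-5p had no spot well above background on any intestine array. Neither miRNA was tested.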

How the results depend on the processing

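The change of miR-31-5p stayed negative under all 23 alternatives (-1.23 to -0.25) and that of miR-31-3p too (-1.2 to -0.22), and 19 of 23 passed for each. The exceptions for miR-31-5p were no scaling (-0.25), no filter (-0.71, adjusted p = 0.21) and the slide rows alone (-0.57 and -0.86), and for miR-31-3p no scaling (-0.22), no filter (-0.68, adjusted p = 0.12) and the rows (-0.58 and -0.78). Leaving out 1 array gave -0.82 to -0.54 (adjusted p = 0.017 to 0.048) and -0.75 to -0.57 (0.015 to 0.046). miR-203-3p (-0.59 to 0.38), miR-802-5p (-0.51 to 0.47) and miR-205-5p in serum (-0.76 to 0.51) passed under none. The intestine count of 140 became 91 with normexp (25 higher, 66 lower), 32 with no filter, and 48 and 49 within the rows. The serum count of 9 became 5 with quantile normalization, 3 without scaling, 2 over miRNAs detected on every array and 24 in 1 fit of all 6 groups. It became 0 with no filter and in rows 1 and 2 (30, 19 and 26 below an unadjusted p of 0.05), and ran from 3 to 16 when 1 array was left out: 5 without 0 Gy replicate 1, and 16, 14 and 3 without 10 Gy replicates 1, 3 and 4. The 20 comparisons between sample types were each refitted under 26 settings, 22 of which left out 1 array. Their calls are a description, since each miRNA entered the fit only through the sample type that detects it. Of these 520 refits 515 kept the call. The exceptions were all with normexp: -0.45 (miR-31-3p) and -0.34 (miR-802-5p) for feces, and 0.22 (miR-31-3p), 0.34 (miR-802-5p) and -0.44 (miR-802-5p at 0 Gy) for serum against intestine. The within-array ratio of miR-31-5p to miR-802-5p was -0.27 with normexp, that of miR-31-3p to miR-802-5p -0.17 and that of miR-31-3p to miR-203-3p -0.39. Within slide rows 1 and 2 the first was -1.04 and -0.41 and the second -1.05 and -0.33. The normexp setting adds an offset of 50 to every spot. Its part in these shifts, and their cause, was not tested.

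The replicate numbers were not taken as pairs in the main fit, and correlations between same-numbered samples cannot show whether they belong together. Deviations of same-numbered intestine samples correlated at -0.56, -0.022, 0.32 and 0.44, and 1 of 4 had its own partner as the best match. In feces the values were -0.43, -0.22, 0.4 and 0.26, with the own partner best for replicate 3 alone. The 2 serum numbers gave 0.28 and 0.44, each with its own partner as the best match. With 2 serum arrays at 0 Gy, their deviations from the mean are mirror images, so these 2 matches are not separate observations. Serum without a 0 Gy array, or within a row, has 1 sample at 0 Gy, which is assumed to vary like the others. With the replicate block miR-31-5p changed by -0.71 (adjusted p = 0.015) and miR-31-3p by -0.68 (0.016), and the serum count became 0 (26 below an unadjusted p of 0.05). Signal over background limits miR-802-5p and miR-205-5p in intestine.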
